A study of Drosophila melanogaster with 58 samples.

Results

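The ecdysone receptors and response genes were followed through the outgrowth of mushroom body axons in Drosophila melanogaster. The set is a list of 10 gene symbols, chosen by name for their place in the ecdysone pathway, with earlier results of these data known. It holds the hormone receptor subunits EcR and usp, the nuclear receptors Hr3, Hr4, Hr39 and ftz-f1, the early genes Eip75B and Eip74EF, and the ecdysone-inducible genes ImpE1 and ImpE2. All 10 were among the 12453 symbols of the count table, and all 10 were among the 10072 genes with enough counts to be tested.

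Ecdysone is the steroid hormone whose pulses time insect moulting and metamorphosis. Its active form binds EcR paired with usp, and the bound receptor switches on early genes, which encode transcription factors that act on later genes, so that each pulse runs through a cascade of receptors in order. In the mushroom body, the insect centre for olfactory memory, EcR is required in gamma neurons for the pruning of larval axons, and ftz-f1 and Hr39 are known to act on the expression of EcR there.

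RNA was measured in 58 libraries, each made with the Smart-seq2 protocol from 1000 GFP-positive cells sorted from brains of flies reared at 25 °C, males and females at random. The 12 groups were alpha-beta neurons, which grow their axons for the first time over these stages, and gamma neurons, which regrow pruned axons, each at 18, 21, 24, 27 and 30 h after pupa formation and in adults 3 to 5 days after eclosion. Groups held 3 to 6 libraries. The strain and the driver that made the cells green are not given in the sources used here, and no group is described as carrying a mutation or a treatment. Nothing states that replicates came from separate animals, so p-values measure the spread between these libraries, which may be partly technical. In sorted bulk samples, fewer cells of a type and less RNA per cell cannot be told apart.

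Levels are given as CPM, the count of a gene relative to a library total scaled by TMM factors, which level the libraries on the bulk of genes, and they were compared between groups for 1 gene at a time because they are not divided by gene length. Library totals ran from 4403619 to 27242758 counts (median 13297343). Of the 14 listed neuron and Kenyon cell markers, elav lay between 222 and 976 CPM. The Kenyon cell transcription factor gene ey lay between 140.5 and 921 CPM. Others fell to 0 in some library, among them prt in pupal alpha-beta neurons and rut and sNPF in pupal gamma neurons. The lowest trio value in alpha-beta adults was 0.462 CPM. The sum of the 14 was at least 3556 CPM in every library. Other cell types left traces. The glial gene Gs2 was higher in adults than at 30 h in both cell types. Another glial gene, repo, was at 0 in every alpha-beta adult library. The neuroblast gene wor reached 110.5 CPM in pupal alpha-beta libraries and was at 0 in every gamma library. The sum of the 5 listed neuroblast genes reached 172.3 CPM in pupal alpha-beta and 25.75 CPM in pupal gamma libraries. The 6 fat body markers summed to 1353 CPM in gamma 24 h replicate 2, in a group with a median of 0. A value of 0 allows a level of up to 3 counts of the library's scaled total, a limit of counting error alone, because the amplified reads carry no molecular tags and copies of 1 molecule can be counted more than 1 time. Counts are summed over isoforms, so the EcR, Eip75B and Eip74EF protein forms were not separated.

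Hr4 rose over 18 to 30 h in both cell types and fell by adulthood, ftz-f1 was near 0 in pupae and high in adults, and ImpE1 was near 0 in adults. ImpE2 was higher in pupal gamma than alpha-beta neurons and at 0 in every adult library. EcR, usp, Hr3, Hr39, Eip75B and Eip74EF were called in none of the comparisons of the main edgeR fit, which took all 12 groups and all libraries. Other edgeR fits called Eip75B or Eip74EF in some comparisons, as given below. For the linear trend over the 12 h of pupal sampling, 1 of 10 genes passed an edgeR adjusted p of 0.05 in alpha-beta neurons, where 0.208% of all genes tested did (0.149% higher and 0.0596% lower). In gamma neurons 1 of 10 passed, and 0.109% of all genes (0.0496% higher and 0.0596% lower). Between 30 h and adult, 3 of 10 passed in alpha-beta neurons against 12.5% of all genes (4.69% higher and 7.8% lower in adults), and 4 of 10 in gamma neurons against 10.2% (5.06% higher and 5.18% lower). Between the cell types, 1 of 10 passed over the mean of the 5 pupal stages against 6.27% of all genes (2.17% higher and 4.1% lower in gamma neurons). In adults 0 of 10 passed against 3.6% (2.11% higher and 1.49% lower), and 1 of 10 had an unadjusted p under 0.05, as did 2011 of the 10072 genes. For the differences between the cell types in the pupal trend and in the change to the adult, edgeR called 0 of 10 in either, against 0% and 0.665% of all genes (0.457% higher and 0.208% lower), with edgeR's unadjusted p-values under 0.05 for 2 and 1, beside 552 and 1200 of the 10072 genes. The median log2 fold change of the 10 genes was 1.03 and 1.56 in the alpha-beta and gamma trends beside -0.09 and 4.76e-04 over all genes, and -0.61 and -0.64 in the adult comparisons beside -0.16 and -0.07. Trends and adult comparisons share the 30 h libraries. With ImpE2 at 0 in every adult library, edgeR had no usable estimate of its difference between adult cell types. The same holds for its difference between the cell types in the change to the adult (SE 34240).

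**Figure D1:**
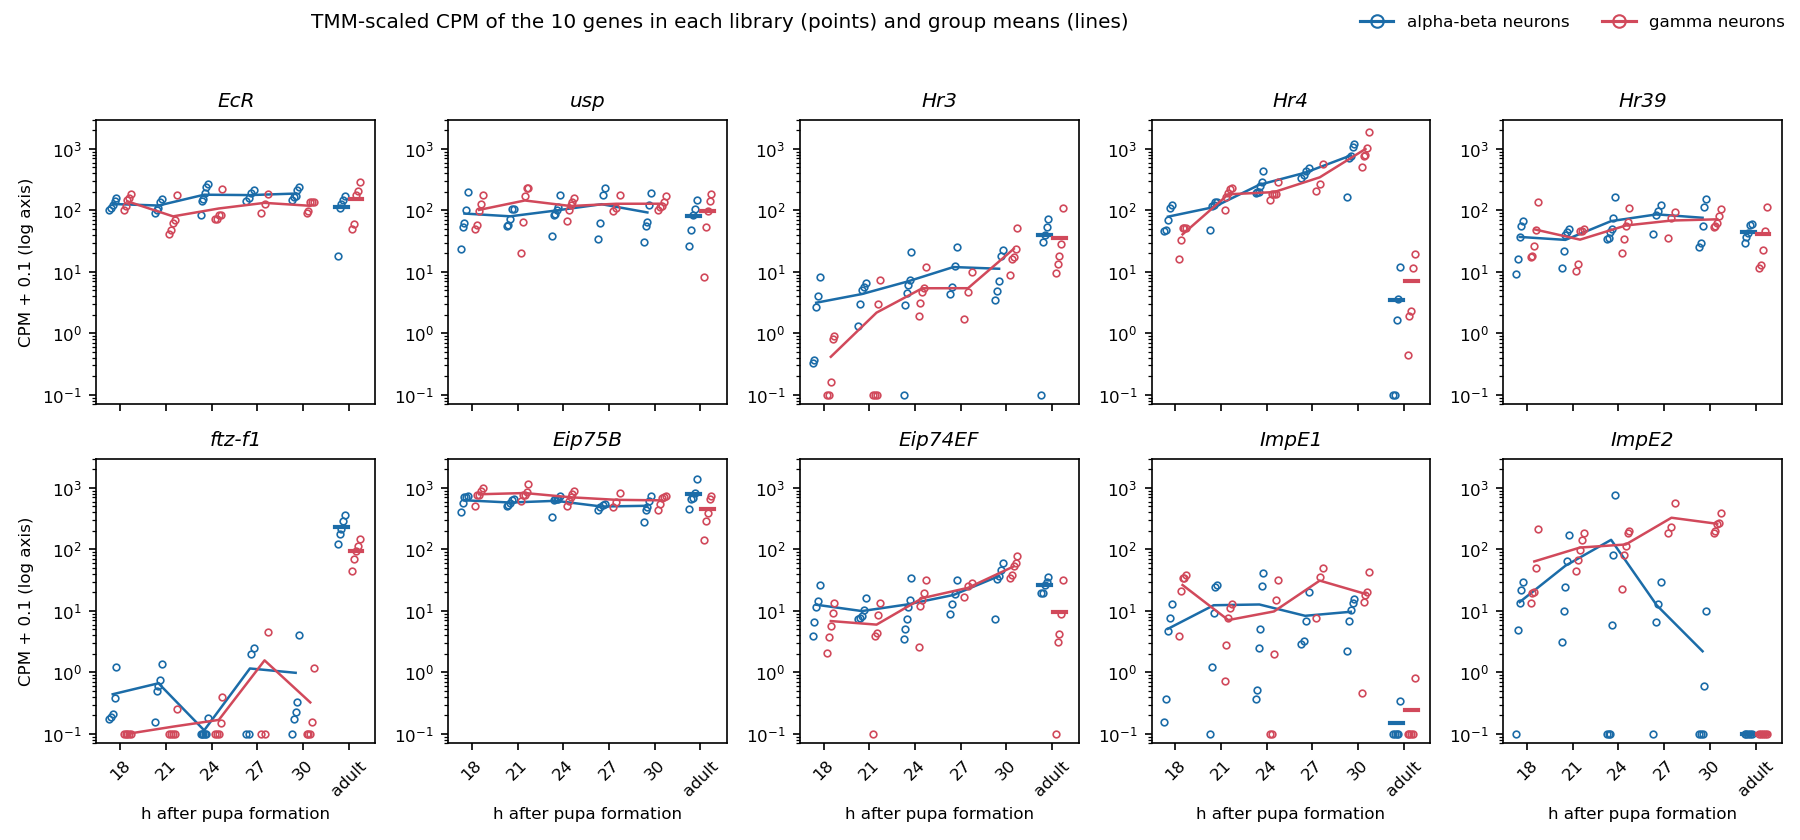
TMM-scaled CPM plus 0.1 (log axis) of the 10 genes against hours after pupa formation or adult stage, with 1 open point per library and lines or bars at the group means; blue is alpha-beta and red is gamma neurons. Hr4 climbs to means of 784 and 999.5 CPM at 30 h and drops to 3.36 and 7.07 CPM in adults. ftz-f1 stays near 0 in pupae and has means of 235 and 94.8 CPM in adults.

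EcR, which encodes the ecdysone-binding nuclear receptor, was detected in every library. Its lowest pupal group mean was 79.9 ± 56.1 CPM (SD, n = 5) in gamma neurons at 21 h and its highest was 188 ± 37.1 CPM (SD, n = 5) in alpha-beta neurons at 30 h. Over the pupal stages its log2 fold change was 0.68 in alpha-beta neurons (SE 0.38, edgeR adjusted p = 0.713) and 0.10 in gamma neurons (SE 0.39, adjusted p = 1). At 30 h the 5 alpha-beta libraries held 163, 174, 239.8, 150.3 and 212 CPM, and the 5 gamma libraries held 136, 138, 96.01, 89.2 and 135 CPM. These ranges did not overlap at 30 h, whereas they did at the other 5 stages. Averaged over the pupal stages EcR had a log2 fold change of -0.45 in gamma against alpha-beta neurons (SE 0.19, unadjusted p = 0.0232), which did not pass after adjustment (edgeR adjusted p = 0.209) and did with limma (-0.51, adjusted p = 0.0168). In adults the libraries spread from 17.8 to 169 CPM in alpha-beta and from 50.5 to 289 CPM in gamma neurons, so the groups overlapped widely.

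The partner subunit usp, the Drosophila RXR homologue, ran from 80.04 ± 24.8 CPM (SD, n = 5) to 145 ± 98.01 CPM (SD, n = 5) among the pupal group means. Libraries of the same group differed more than the groups did: in gamma neurons at 21 h the 5 libraries held 20.03, 65.1, 232, 172 and 235 CPM. Its log2 fold changes in the pupal trends, against adults and between cell types lay between -0.40 and 0.36, with an edgeR adjusted p of 0.760 or more in each. In the Ensembl annotation the exons of usp share 265 bases with Actn on the same strand and 196 with CG4313 on the other strand, and it is not stated whether counting used strand.

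Hr4 encodes a nuclear receptor of the cascade that in larvae acts between the early genes and later ones. In alpha-beta neurons the libraries held 48.05, 120.4, 46.4, 69.9 and 110 CPM at 18 h. At 21 h they held 124, 139, 48.3, 116 and 137 CPM, and at 24 h 189 (lowest), 224 (median) and 438 CPM (highest). The ranges at 18 and 21 h overlapped, and every library at 24 h was above all of those before it. At 27 h the values were 490.1, 334, 446 and 371 CPM, and at 30 h they were 1195, 718, 764, 165 and 1079 CPM. Replicate 4 at 30 h was below every library of 27 h, and the other 4 were above them. The mean rose 9.93-fold from 18 to 30 h, and the linear trend gave a log2 fold change of 3.39 (edgeR adjusted p = 0.00139, SE 0.60).

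In gamma neurons Hr4 was at 50.7, 51.6, 33.2, 51.9 and 15.8 CPM at 18 h. At 21 h all libraries were higher, at 189.7, 226, 100.2, 162 and 235 CPM. They then held 186, 146, 290.2, 188 and 181 CPM at 24 h, a range that overlapped the stage before it. At 27 h the 3 libraries held 566, 206 and 264 CPM, and at 30 h the 5 held 1054, 761, 796, 515 and 1872 CPM. Every library at 30 h was above every library at 24 h. The mean rose 24.6-fold from 18 to 30 h, and the linear trend gave a log2 fold change of 4.06 (edgeR adjusted p = 7.22e-05, SE 0.62). The trends of both cell types were called in each of the 25 and 23 fits that left out 1 library, and the difference between the trends was 0.67 (SE 0.79, edgeR adjusted p = 1; 95% interval -0.92 to 2.26).

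For the steps within the pupal period the main edgeR fit called none of the 10 genes. From 18 to 24 h the log2 fold change of Hr4 was 1.73 in alpha-beta and 2.29 in gamma neurons, and from 24 to 30 h it was 1.59 and 2.33. In these 4 comparisons the main edgeR fit called 0 of the 10 genes and 0% of all genes tested. Unadjusted p-values under 0.05 were found for 3 of the 10 genes in alpha-beta neurons in either step, beside 882 and 832 of all 10072 genes, and for 2 and 1 in gamma neurons, beside 962 and 967. DESeq2 called 2 of the 10 in alpha-beta neurons from 24 to 30 h (ftz-f1 and ImpE2), beside 352 of all 10072 genes. The 24 h libraries held at most 1 count of ftz-f1. Its 30 h mean was 0.884 CPM, and 0.108 CPM without replicate 3. The 24 h mean of ImpE2 was 143 CPM, and 17.4 CPM without replicate 6. In edgeR fits without 1 library the log2 fold change lay between 2.41 and 6.6 for ftz-f1. For ImpE2 it lay between -9.87 and -3.0. In gamma neurons DESeq2 called 2 from 18 to 24 h (Hr3 and Hr4) and 1 from 24 to 30 h (Hr4), beside 451 and 504. From 24 to 30 h in gamma neurons limma also called Hr4, beside 40 of all genes. An edgeR fit of only the groups compared called Hr4 in this step too (log2 fold change 2.32, adjusted p = 0.0385), where 1 of 6913 genes was called.

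In adults Hr4 was at 0, 3.53, 11.7, 1.58 and 0 CPM in alpha-beta and 19.5, 1.83, 2.23, 11.5 and 0.351 CPM in gamma neurons. Every alpha-beta adult library was below every pupal one, and every gamma adult library was below every library of 21 h and later, while gamma adult replicate 1 was above gamma 18 h replicate 5. The mean was 233-fold lower than at 30 h in alpha-beta neurons (log2 fold change -7.80, SE 0.83, edgeR adjusted p = 2.15e-10) and 141-fold lower in gamma neurons (log2 fold change -7.13, SE 0.80, edgeR adjusted p = 1.59e-09). Both calls held in all 10 fits that left out 1 library. The sizes moved with 1 library each: without alpha-beta adult replicate 3 the adult mean was 1.28 CPM and the log2 fold change -9.19, and without gamma adult replicate 1 they were 3.97 CPM and -7.92. Between adult cell types the log2 fold change was 1.02 (SE 0.64, edgeR adjusted p = 0.414), and leaving out alpha-beta adult replicate 3, the library with 11.7 CPM, brought it past the threshold. Exons of Hr4 share 46 bases with PIG-K on the opposite strand.

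Hr3 encodes the nuclear receptor that in prepupae is needed for ftz-f1 expression. In gamma neurons at 18 h the libraries held 0.703, 0, 0.0595, 0.816 and 0 CPM, and at 30 h they held 16.3, 17.1, 23.8, 8.80 and 51.96 CPM. These groups did not overlap, and the mean went from 0.316 ± 0.408 CPM (SD, n = 5) to 23.6 ± 16.7 CPM (SD, n = 5). The trend in gamma neurons was 5.49 (SE 1.44) with an edgeR adjusted p of 0.119, past the threshold in DESeq2 and limma only. In alpha-beta neurons the mean went from 3.05 ± 3.29 CPM (SD, n = 5) to 11.1 ± 8.60 CPM (SD, n = 5) with overlapping libraries (log2 fold change 2.08, SE 1.24, edgeR adjusted p = 0.784). Adult means were 39.02 ± 26.8 CPM (SD, n = 5) and 35.4 ± 41.05 CPM (SD, n = 5). In the alpha-beta adults replicate 5 was at 0 and the others were between 30.1 and 71.2 CPM, and in the gamma adults replicate 5 held 107.8 CPM and the others 9.43 to 28.1 CPM. Most of the exon length of Hr3 is shared on the same strand with CG12912 (6466 of 10465 bases) and CG46321 (6071 bases), so reads of these genes cannot be assigned with certainty.

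Hr39, an orphan nuclear receptor of the same family as ftz-f1, was detected in every library. Its pupal group means lay between 33.04 ± 15.8 CPM (SD, n = 5) and 86.1 ± 34.2 CPM (SD, n = 4), both in alpha-beta neurons. The trend was 1.38 in alpha-beta neurons (SE 0.58, unadjusted p = 0.0216, edgeR adjusted p = 0.386) and 0.85 in gamma neurons (SE 0.59, adjusted p = 0.913). Adult means were 45.3 ± 13.3 CPM (SD, n = 5) and 41.5 ± 42.6 CPM (SD, n = 5), and the libraries of all 12 groups overlapped with those of the next stage.

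Among the early genes, Eip75B, a haem-binding nuclear receptor that can counter Hr3, was at 144 CPM or more in every library. Pupal group means ran from 499 ± 44.3 CPM (SD, n = 4) to 827 ± 205 CPM (SD, n = 5). The alpha-beta adults held 1402, 459, 677, 819 and 668 CPM, and the gamma adults held 670.2, 286, 144, 396 and 740.3 CPM. These groups overlapped, and the adult difference, gamma against alpha-beta, was a log2 fold change of -0.85 (edgeR adjusted p = 0.0858, SE 0.29). It passed the threshold with DESeq2 (-0.88), with limma (-1.30), with a block for the set of the library number (-0.86), without alpha-beta adult replicate 2 and without gamma adult replicates 1 or 5, each alone, and over all fits without 1 library it lay between -1.12 and -0.56. In pupae the same contrast had the opposite sign, 0.34 (SE 0.13, adjusted p = 0.145). Adult minus 30 h was 0.65 in alpha-beta and -0.49 in gamma neurons, and the difference of these changes was -1.14 (SE 0.41, unadjusted p = 0.00682, edgeR adjusted p = 0.157).

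Eip74EF encodes an ETS-domain transcription factor. In gamma neurons it held 1.99, 13.3, 5.53, 9.17 and 3.66 CPM at 18 h and 34.7, 53.2, 61.2, 38.7 and 76.8 CPM at 30 h, and these groups did not overlap. The mean at 30 h was 7.85-fold that at 18 h, with a trend of 3.18 (SE 0.91, edgeR adjusted p = 0.165), past the threshold with DESeq2 and limma. In alpha-beta neurons the trend was 1.60 (SE 0.85, adjusted p = 0.656), and replicate 4 at 30 h, at 7.24 CPM, overlapped the 18 h libraries. In adults the gamma libraries held 32.05, 4.14, 3.02, 8.72 and 0 CPM, all below the 30 h group. The log2 fold change was -2.46 (SE 0.98, edgeR adjusted p = 0.0894), and -3.72 with an adjusted p of 0.0207 without gamma adult replicate 1, the library with 32.05 CPM. The alpha-beta adults, at 29.3, 19.1, 35.4, 19.5 and 26.8 CPM, overlapped their 30 h group (log2 fold change -0.50, SE 0.93, edgeR adjusted p = 0.820).

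**Figure D2:**
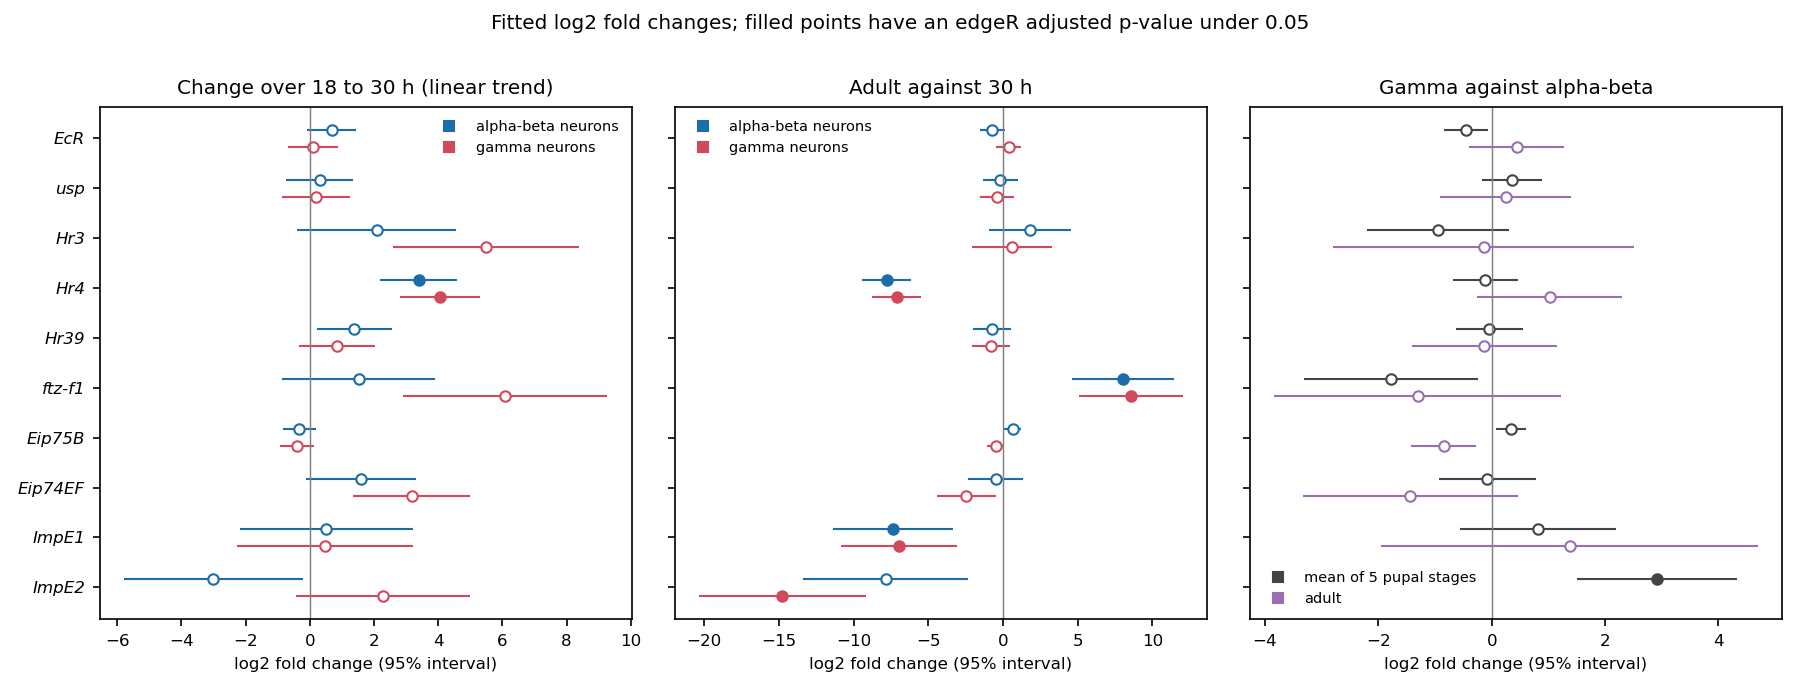
Fitted log2 fold changes with 95% intervals for the 10 genes: the linear trend over 18 to 30 h, adult against 30 h, and gamma against alpha-beta neurons; filled points had an edgeR adjusted p-value under 0.05. Filled points are at Hr4 in both trends (3.39 and 4.06), at Hr4, ftz-f1 and ImpE1 in both adult comparisons and ImpE2 in the gamma one, and at ImpE2 between pupal cell types (2.92); where a group is at 0 (ImpE2 in adults) the fitted value is no bound.

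ftz-f1 encodes the nuclear receptor that acts when the ecdysone titre has fallen. It was at 3 counts or fewer in 16 of 25 alpha-beta and 20 of 23 gamma pupal libraries. All 5 gamma libraries at 18 h were at 0. The highest pupal values were 4.41 CPM (52 counts) in gamma 27 h replicate 3 and 3.99 CPM (63 counts) in alpha-beta 30 h replicate 3, each far above the other libraries of its group. In adults the alpha-beta libraries held 369, 178, 214, 124 and 288 CPM and the gamma libraries 95.8, 71.1, 44.2, 115.3 and 147 CPM. No pupal library came near these values.

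The mean of ftz-f1 rose from 0.884 ± 1.74 CPM (SD, n = 5) at 30 h to 235 ± 95.8 CPM (SD, n = 5) in alpha-beta adults, with a log2 fold change of 8.02 (edgeR adjusted p = 5.17e-04, SE 1.69). In gamma neurons it rose from 0.225 ± 0.472 CPM (SD, n = 5) to 94.8 ± 39.7 CPM (SD, n = 5) (log2 fold change 8.55, SE 1.73, edgeR adjusted p = 4.02e-04). Both calls held in all 10 fits without 1 library, where the log2 fold change reached 11.01 and 11.79 when the replicate 3 at 30 h was left out. Adult gamma against alpha-beta gave -1.31 (SE 1.26, edgeR adjusted p = 0.688), and the libraries overlapped between 124 and 147 CPM. The pupal trend in gamma neurons (6.09, edgeR adjusted p = 0.119, a fitted value that is no bound since the 18 h libraries were at 0) was 3.17 without the 27 h replicate 3 and 3.48 without the 30 h replicate 3. Pupal gamma against alpha-beta gave -1.78 (edgeR adjusted p = 0.217), and -3.24 (adjusted p = 0.0228) without gamma 27 h replicate 3. Exons of ftz-f1 share 2521 bases with lncRNA:CR45939 on the same strand, which was at 0 CPM in the adult libraries. The summed level of the 7 glial markers was 752 to 2752 CPM in alpha-beta and 496.5 to 3473 CPM in gamma adults, ranges that reached above and overlapped the 400.2 to 1194 and 219 to 872 CPM of pupae. Of the 7, 5 were above 3 counts in some alpha-beta adult library and 7 in some gamma adult library. In adults Gs2 and nrv2 had the highest means of the 7. In alpha-beta adults the means of Gs2 (994.3 CPM) and alrm were above all their pupal group means. Those of nrv2 (340.1 CPM), wrapper and repo were below. Alpha-beta pupal group means were 33.15 to 65.39 CPM for Gs2 and 470.2 to 626.3 CPM for nrv2. In gamma adults Gs2, nrv2, alrm, Eaat1 and moody had means above all their pupal group means, and wrapper below. The glial factor gene repo was at 0 in every alpha-beta adult library and at 0 to 13.6 CPM in the gamma adults, beside 0 to 13.3 and 0 to 31.2 CPM in pupae. The part of glial RNA in the adult differences was not tested.

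ImpE1, which encodes a membrane protein first found as ecdysone-inducible in imaginal discs, varied widely between libraries of the same group. At 30 h the alpha-beta libraries held 13.3, 6.76, 2.09, 15.4 and 10.3 CPM and the gamma libraries 42.1, 0.364, 17.9, 19.8 and 13.7 CPM. In adults it was at 0 in 4 of 5 libraries of either cell type, with 2 counts in alpha-beta replicate 2 and 7 counts (0.710 CPM) in gamma replicate 1. In alpha-beta neurons the groups did not overlap: 645 counts over the 5 libraries at 30 h stood against 2 in adults, a ratio of levels of 217.5 with an exact 95% interval of 59.96 to 1800 that covers counting error only (edgeR adjusted p = 0.00845). In gamma neurons replicate 2 at 30 h, with 4 counts, lay below that adult library, so the groups overlapped (edgeR adjusted p = 0.0122). The pupal trends were 0.52 (SE 1.35) in alpha-beta and 0.47 (SE 1.37) in gamma neurons, each with an adjusted p of 1 in edgeR.

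ImpE2 encodes an extracellular protein that is likewise ecdysone-inducible in discs. In gamma neurons every pupal library held at least 13.5 CPM, and at 27 h the 3 libraries held 563, 186 and 235 CPM. At 30 h they held 188, 269, 196, 256 and 397 CPM. In alpha-beta neurons the libraries held 6.56, 12.7, 0 and 29.5 CPM at 27 h and 0, 0, 0.506, 10.02 and 0 CPM at 30 h. The cell types did not overlap at 27 and 30 h, where the gamma means were 26.9-fold and 124-fold higher, and overlapped at 18, 21 and 24 h. Without replicate 4 the alpha-beta mean at 30 h was 0.127 CPM. Over the mean of the pupal stages gamma was higher with a log2 fold change of 2.92 (edgeR adjusted p = 0.00596, SE 0.70), called in all 48 fits without 1 library.

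The 6 alpha-beta libraries at 24 h ranged from 0 to 772 CPM with a median of 2.90 CPM, and their mean fell from 143 to 17.4 CPM without replicate 6. The trend of ImpE2 was -3.01 in alpha-beta neurons (SE 1.39, edgeR adjusted p = 0.487) and 2.27 in gamma neurons (SE 1.35, adjusted p = 0.770), and their difference of 5.28 (SE 1.94, unadjusted p = 0.00906) did not pass after adjustment in edgeR (adjusted p = 0.400) and did with limma (8.18, adjusted p = 0.0108). Without alpha-beta 30 h replicate 4 the alpha-beta trend was -6.06 and the difference 8.33 in edgeR, and over all fits without 1 library they lay between -6.06 and -2.57 and between 4.84 and 8.33. All 10 adult libraries were at 0. Against 30 h this was at least 497-fold lower in gamma neurons, taking the limit of 3 counts in the shallowest adult library (edgeR adjusted p = 1.71e-04). In alpha-beta neurons 3 of the 5 libraries at 30 h were at 0 as well, and the comparison had an edgeR adjusted p of 0.0506; it passed without replicate 1, 2 or 5 at 30 h, each alone, and not without replicate 4.

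The summed level of epithelial markers moved with ImpE2 among pupal libraries. Of the 5 listed genes of tracheal and other epithelium (trh, btl, pio, dpy and Cht5), 4 were in the table, and their summed level is that of trh, pio, dpy and Cht5. Its group medians ran from 1.28 to 23.3 CPM in pupal alpha-beta and from 42.8 to 360 CPM in pupal gamma neurons. Alpha-beta 24 h replicate 6, the library with 772 CPM of ImpE2, also held 692 CPM of these markers, of which 572 CPM were Cht5, a chitinase. Cht5 was higher in pupal gamma than alpha-beta neurons (log2 fold change 2.65, SE 0.78, edgeR adjusted p = 0.0268). Pupal gamma group means ran from 51.8 to 227 CPM for Cht5 and from 8.85 to 57.1 CPM for pio. For dpy they ran from 0.0572 to 46.4 CPM, and for trh from 0 to 1.83 CPM. In the gamma libraries of 18 and 21 h dpy was at most 0.537 CPM, while ImpE2 held 13.5 to 216 CPM. The correlations that follow are of the sum, and the marker genes were not correlated 1 by 1. Over the 48 pupal libraries with group means removed, ImpE2 and the marker sum had a Pearson r of 0.553 (permutation p within groups 0.00479, adjusted over 6 marker lists 0.0287) and a Spearman rho of 0.455 (adjusted p = 0.037). Without the 2 libraries farthest from the median of the marker sum r was 0.399. For the other 5 lists the adjusted p of r was 0.339 or more. The tracheal factor gene trh was at 0 in all 5 gamma libraries at 30 h, and it was at most 4.42 CPM in any pupal gamma library. In adults the marker sum still reached 65.8 CPM in alpha-beta and 135 CPM in gamma libraries while ImpE2 was at 0. The part of epithelial RNA in the ImpE2 result was not tested.

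**Figure D3:**
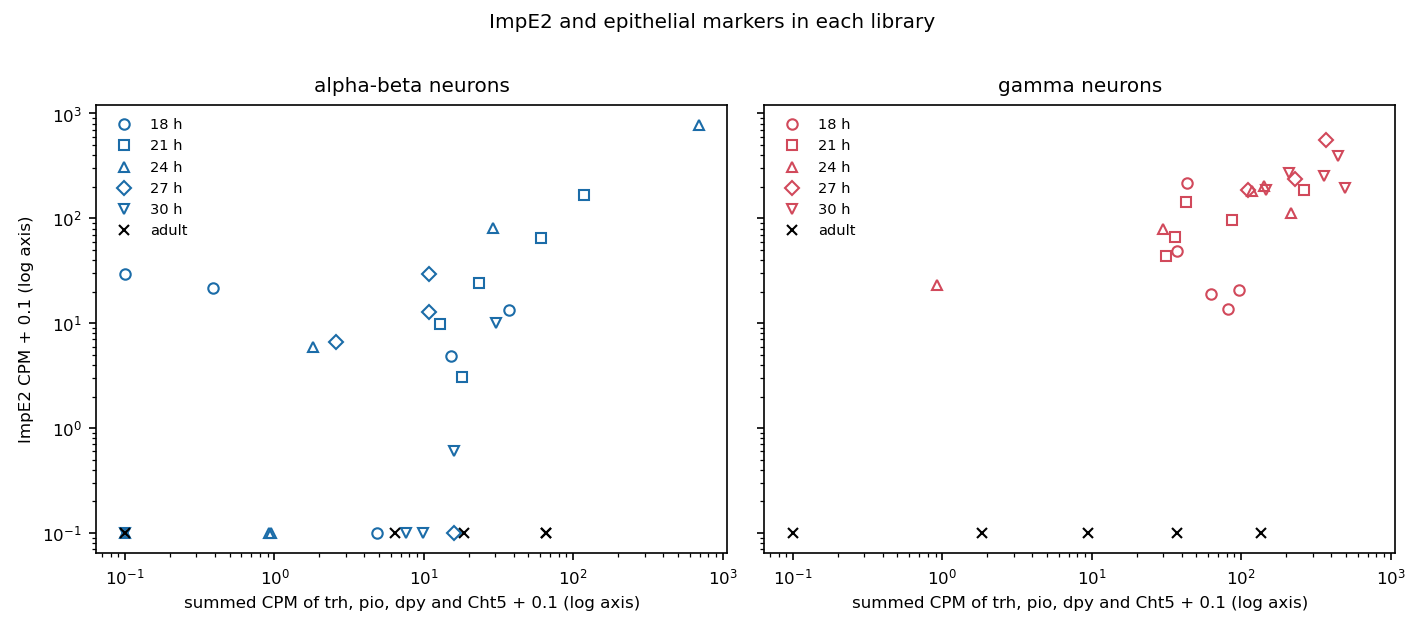
ImpE2 against the summed level of trh, pio, dpy and Cht5, both in TMM-scaled CPM plus 0.1 on log axes, with 1 point per library, a symbol per stage, and a panel per cell type. Most pupal gamma libraries lie above most pupal alpha-beta libraries on both axes with overlap (gamma 24 h replicate 1 has 0.815 CPM of the markers and gamma 18 h replicate 1 has 13.5 CPM of ImpE2), alpha-beta 24 h replicate 6 lies alone at 692 and 772 CPM, and the adult crosses lie at 0 on the ImpE2 axis.

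The other genes of the pathway came from a list of 51, of which 47 were in the table and 43 were tested. None of the 43 was called in the pupal trends by edgeR, though 8 in either cell type had an unadjusted p under 0.05, beside 880 (alpha-beta) and 915 (gamma) of the 10072 genes. Against 30 h, 9 were called in alpha-beta adults (4 higher and 5 lower), where 12.5% of all genes were, and 6 in gamma adults (3 higher and 3 lower), where 10.2% were. The median log2 fold change of the list was 0 and -0.55, beside -0.16 and -0.07 over all genes tested.

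Kr-h1, a zinc-finger factor known for its induction by juvenile hormone, was at most 0.0779 CPM in any pupal alpha-beta library and at 0 in every pupal gamma library, and its adult libraries held 76.6 to 237 and 52.4 to 128 CPM. Like ftz-f1, it was near 0 in pupae and present in adults of both cell types (edgeR adjusted p = 3.91e-06 and 3.07e-06). DopEcR, a membrane receptor for dopamine and ecdysone, rose from 163 ± 39.9 CPM (SD, n = 5) to 769.5 ± 183 CPM (SD, n = 5) in alpha-beta neurons (log2 fold change 2.24, SE 0.31, edgeR adjusted p = 2.22e-07). In gamma neurons its log2 fold change was 1.99 (SE 0.31, edgeR adjusted p = 3.41e-06).

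Among the listed genes that fell, Blimp-1, a repressor that times ftz-f1 expression in prepupae, went from 374 ± 78.7 CPM (SD, n = 5) to 38.97 ± 38.5 CPM (SD, n = 5) in alpha-beta neurons and from 586 ± 341 CPM (SD, n = 5) to 90.8 ± 52.4 CPM (SD, n = 5) in gamma neurons. Its log2 fold changes were -3.26 (SE 0.43, edgeR adjusted p = 5.73e-08) and -2.69 (SE 0.42, adjusted p = 3.43e-06). Sox14, a transcription factor needed for pruning, held at least 16.4 and 18.8 CPM in every 30 h library of alpha-beta and gamma neurons, and at most 0.156 CPM in the alpha-beta adults and 0 in the gamma adults (edgeR adjusted p = 8.30e-04 and 1.17e-04). Hr51, a nuclear receptor required for regrowth of gamma axons, fell by 1.36 (SE 0.29, adjusted p = 5.36e-04) and by 1.05 (SE 0.29, adjusted p = 0.0112) on the log2 scale.

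Between cell types 1 of the 43 was called in pupae, where 6.27% of all genes were: the cell death gene rpr was lower in gamma neurons (log2 fold change -2.24, SE 0.61, edgeR adjusted p = 0.0141). In adults 3 were called, where 3.6% of all genes were. Mical, an actin regulator downstream of Sox14 in pruning, was higher in gamma neurons (log2 fold change 1.97, SE 0.52, edgeR adjusted p = 0.0210), and the transcription factor genes Eip93F and br were lower (-1.57, SE 0.37, adjusted p = 0.00764, and -2.81, SE 0.75, adjusted p = 0.0208). The call of Mical was lost without alpha-beta adult replicate 2 or 5 or gamma adult replicate 4, each alone (log2 fold changes 1.68, 1.73 and 1.57), and that of br without gamma adult replicate 4 (-2.64, adjusted p = 0.0544). With only the adult groups fitted all 3 calls were lost, at log2 fold changes of 2.00 for Mical, -1.56 for Eip93F and -2.82 for br (edgeR adjusted p = 0.488, 0.403 and 0.0647), and calls over all genes went from 363 to 25. With limma Mical and br were lost too (2.31, adjusted p = 0.0632, and -2.98, adjusted p = 0.145).

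Whether libraries of the same group that were high in 1 gene were high in another was asked over the 48 pupal libraries for all 45 pairs of the 10 genes, with group means removed. After adjustment over the 45 pairs, 2 passed by Pearson's r and 1 of them also by Spearman's rho. Libraries with more usp had less Hr4 (r -0.515, permutation p within groups 2.60e-04, adjusted 0.0117; rho -0.564, adjusted 0.0063) and, by r, more Hr39 (r 0.511, adjusted p = 0.0421; rho 0.5, adjusted 0.0731). Without the 2 libraries farthest from the median of usp the values were -0.539 and 0.444. The number after S in the library names, in runs of 12, forms 5 sets that cut across the groups, and it is not stated whether they mark a batch. With set means also removed, r was -0.203 for usp and Hr4 and 0.345 for usp and Hr39. Within the sets r ran from -0.136 to -0.556 for the first pair and from -0.059 to 0.636 for the other. On average usp deviated from its group means by 0.73 in the third set and -0.66 in the first on the log2 scale, and Hr4 by -0.57 and 0.19. The deviations of usp and of the library total had an r of 0.489.

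**Figure D4:**
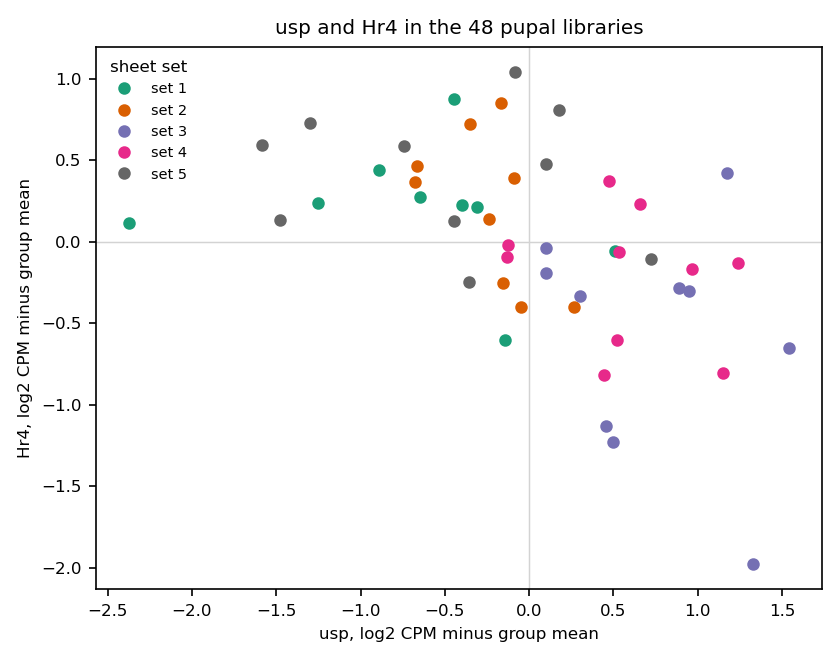
Deviation of Hr4 from its group mean against that of usp, both in log2 CPM, with 1 point per pupal library coloured by the set of its number in the library name. Points of sets 3 and 4 lie mostly to the right and those of sets 1, 2 and 5 mostly to the left, and across all 48 libraries r is -0.515.

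In the authors' deposited table of 16 comparisons between groups, 0 to 6 of the 10 genes had an adjusted p under 0.05. In the 10 comparisons with adults 4 to 6 of the 10 genes did, beside 17.1% to 23.4% of all genes in that table, and in the 6 between cell types 0 to 1 did, beside 4.79% to 12.6%. Of the 6 comparisons between cell types at the same stage, 3 held 1 such gene each: Hr3 at 18 h (log2 fold change 3.35 alpha-beta over gamma, adjusted p = 0.0438), ImpE2 at 30 h (-6.96, adjusted p = 1.73e-04) and Eip75B in adults (0.88, adjusted p = 0.0167), all in the authors' deposited table. For Eip74EF the authors' deposited table gives a log2 fold change of 2.41 at 30 h over adult in gamma neurons with an adjusted p of 0.00737. These comparisons share groups with the ones above and come from the authors' own fits.

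Over the 12 group means of log2 CPM, the genes most like Hr4 among 5650 compared were CG32100 (r 0.981), botv (0.961) and Secp43 (0.960). For ftz-f1 they were CG3009 (0.986), CG7582 (0.985) and Cyt-c-p (0.984), and for ImpE2 they were CG13023 (0.979), CG34247 (0.967) and CG7675 (0.939). For EcR, usp, Hr39, Eip75B and Eip74EF the highest r was 0.891, 0.916, 0.863, 0.885 and 0.870. For Hr3 it was 0.974 with Gpo1 and for ImpE1 0.942 with crc. The 12 points share libraries and scaling between genes, and the correlations are a description only.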

How the data were processed

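RNA from 58 sorted libraries of 12 groups was analysed. The authors deposited 1 table with 12453 gene symbols that holds raw counts, and reads were aligned with STAR, per the submitters' processing notes. The counting program, its strand setting, the genome build and the annotation are not given in the sources used here. The authors also deposited a normalized signal, variance-stabilized log2 values, and log2 fold changes with p-values of 16 comparisons; the normalized and variance-stabilized values were not used, and the fold changes and adjusted p-values are cited only where the authors' table is named. No column was left without a sample.

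From the counts, genes were filtered with filterByExpr (minimum count 10, minimum total 15), which left 10072. All 12 groups were fitted together with TMM factors and the quasi-likelihood test of edgeR 4.0.16 in R 4.3.3, with Benjamini-Hochberg adjustment over all genes tested and a threshold of 0.05. The pupal trend is a linear contrast over the 5 stages, scaled to 12 h. Fits that left out 1 library kept the genes tested and the trended dispersion of the full data. Alternatives were RLE factors, no filter, DESeq2 1.42.0, limma 3.58.1 (voom with sample weights), only the groups compared, a replicate block, and a block for the set of the library number. Plain totals were used for the group means only. Correlations used 100000 permutations within groups. Scripts were tested on simulated data.

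The 10 genes, the lists of other pathway genes and of cell type markers, and the tests were chosen with earlier results of these data known. Of the other pathway genes, those called are named, at most the 5 with the smallest p per comparison. The 3 most like genes of each of the 10 were taken by Pearson correlation of mean log2 CPM over the 12 groups, among genes whose average log2 CPM was 4 or more. Overlapping exons were found in an Ensembl annotation, which may differ from the one behind the counts. No pair of libraries of a group differed by as little as sampling noise: chi-square per degree of freedom was 86.0 to 913 over 114 pairs. The biological coefficient of variation was 1.34, which limits the folds that can be called.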

Additional observations from a re-analysis of the deposited data

Results flagged for a closer look

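In all, 104 combinations of a gene and a group of 4 or more libraries were tested for a library far from the others. Of these, 18 held such a library. Many of the CPM values were skewed or rested on few counts, so the share expected by chance is not known. The 18 are therefore a description, and whether they exceed chance was not tested. Values are in CPM. For EcR, gamma 21 h replicate 3 held 178.0 and the next library of its group 70.7, and gamma 24 h replicate 4 held 224.6 beside 83.6. For Hr3, alpha-beta 24 h replicate 1 held 20.7 beside 7.40, and gamma adult replicate 5 held 107.8 beside 28.1. For Hr4, alpha-beta 21 h replicate 3 was low at 48.3 beside 116, and gamma 24 h replicate 3 was high at 290.2 beside 188. For Hr39, alpha-beta 24 h replicate 3 held 162.9 beside 74.7, and gamma 18 h replicate 3 held 135.0 beside 48.5.

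For ftz-f1 the high libraries were alpha-beta 18 h replicate 5 with 1.15 (8 counts), alpha-beta 30 h replicate 3 with 3.99, gamma 24 h replicate 2 with 0.294 (4 counts) and gamma 30 h replicate 3 with 1.07. For Eip75B, alpha-beta 24 h replicate 5 was low at 342.4 beside 634. Gamma adult replicate 1 held 32.05 of Eip74EF beside 8.72, and 0.710 of ImpE1 where the other 4 libraries were at 0; no other library stood apart in 2 of the genes. For ImpE2, alpha-beta 24 h replicate 6 held 771.9 beside 81.4, alpha-beta 30 h replicate 4 held 10.02 beside 0.506, and gamma 18 h replicate 5 held 216.4 beside 49.1.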

How the results depend on the processing

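Under RLE factors no result changed its direction or its side of the threshold. With plain library totals only the group means were recomputed, and each of the 120 stayed within 1 SD of its TMM-scaled value. Of the 10 genes, DESeq2 called 4 in the gamma trend (Hr3, Hr4, ftz-f1 and Eip74EF) against 1, 2 in alpha-beta from 24 to 30 h (ftz-f1 and ImpE2) against 0, 2 in gamma from 18 to 24 h (Hr3 and Hr4) and 1 in gamma from 24 to 30 h (Hr4) against 0, 5 in alpha-beta adults against 3, and 1, Eip75B, in adult gamma against alpha-beta and in the difference of the adult changes against 0. Limma called 4 in the gamma trend (Hr3, Hr4, Eip74EF and ImpE2), 1 in gamma from 24 to 30 h (Hr4), 2 in pupal gamma against alpha-beta (EcR and ImpE2), and 1 each in the adult cell types (Eip75B), the difference of trends and the difference of the adult changes (both ImpE2). Since ImpE2 was at 0 in every adult library, its difference of the adult changes restates the cell type difference at 30 h. With only the groups compared 1 was called in gamma from 24 to 30 h and 2 in pupal gamma against alpha-beta (ImpE2 and Eip75B), and 6 results could not be fitted because the filter removed ftz-f1, ImpE1 or ImpE2. Over all genes, edgeR called 21 and 11 in the trends, DESeq2 400 and 564, and limma 278 and 155. In the adult comparisons edgeR called 1258 (alpha-beta) and 1032 (gamma), DESeq2 2468 and 2172, and the fits of only the groups compared 758 and 465. Over all genes DESeq2 called 309 to 504 in the 4 pupal steps and limma 1 to 40, where edgeR called 0. Between cell types limma called 1091 of the 10072 genes in pupae, and DESeq2 and limma called 1450 and 313 in adults. For the difference of trends limma called 82, and for the difference of the adult changes DESeq2 and limma called 924 and 123. With only the groups compared, calls were 1 of 6913 genes in gamma from 24 to 30 h and 764 of 9824 between pupal cell types. The cause of these differences between the fits was not tested.

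With a replicate block the alpha-beta adult comparison called 4 of the 10 genes against 3, since ImpE2 passed (log2 fold change -8.01, edgeR adjusted p = 0.0388). No other count of the 10 changed. Over all genes that fit called 1411 in the alpha-beta adult comparison and 49 and 27 in the trends. Deviations from the group means in same-numbered libraries had a mean correlation of 0.0158 to 0.0438. Correlations this low do not decide whether the numbers pair the libraries. With the block for the set of the library number 1 of the 10 was called between adult cell types, Eip75B, beside 469 of the 10072 genes. Set means removed, the r of usp with Hr4 was -0.203 and with Hr39 0.345, a choice made after seeing the data.

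Fits without 1 library called 1 of the 10 in each trend, 0 in each step, 3 to 4 and 4 to 5 in alpha-beta and gamma adults, 1 to 2 in pupal and 0 to 1 in adult gamma against alpha-beta, and 0 in either difference. Calls over all genes were not counted in the fits without 1 library, so no share stands beside these counts. Signs turned for ImpE2 in alpha-beta from 18 to 24 h (3.37, against -0.96 with limma and -0.82 with the replicate block), EcR in gamma adults (0.39, against -0.23 with limma), usp in the alpha-beta trend (-0.05 without 30 h replicate 4, in a range up to 0.76), usp in alpha-beta adults (0.27 without 30 h replicate 4 and 0.03 without adult replicate 5, in a range down to -0.50) and EcR in the gamma trend (-0.02 without 27 h replicate 4, in a range up to 0.31); none of these was called. Hr51 in gamma adults was lost with limma (-0.85), and Mical (2.00), br (-2.82) and Eip93F (-1.56) between adult cell types were lost with only the groups compared, where calls over all genes went from 363 to 25. Depth limits ftz-f1, ImpE1 and ImpE2 where counts were at 0 to 3.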
